A study of Homo sapiens with 15 samples.

Results

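The miR-23a, miR-27a and miR-24-2 cluster is a group of 3 microRNA hairpins that lie within 373 bases of human chromosome 19. Its mature products were taken by name from a table of small RNA reads per mature miRNA. They are hsa-miR-23a-3p, hsa-miR-23a-5p, hsa-miR-27a-3p, hsa-miR-27a-5p, hsa-miR-24-3p and hsa-miR-24-2-5p (hsa- marks human and is left out below), 6 of the 1619 entries in the table.

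A microRNA is cut as a hairpin from a longer primary transcript by the nuclease Drosha and then trimmed by Dicer to a short duplex. Each strand of the duplex is named for its side of the hairpin, 5p or 3p, and the strand kept in an Argonaute protein pairs through its seed (bases 2 to 8) with messenger RNAs, which are then repressed. Hairpins of a cluster share a primary transcript, yet their mature products can accumulate to different levels, because processing, strand choice and decay differ between them. The human genome carries a related cluster on chromosome 9, with miR-23b, miR-27b and miR-24-1. miR-23a is known for repression of mitochondrial glutaminase, miR-27a for regulation of lipid metabolism and of the ubiquitin ligase adaptor FBXW7, and miR-24 for regulation of cell cycle genes.

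All libraries are labelled as DiFi, a long-established line of human colorectal cancer cells, and the study set out to try culture conditions for collecting the secreted particles that carry small RNA. The 14 libraries in the table comprise 2 cell pellets, 2 libraries each of plate 1, plate 2 and plate 3 cells, 2 of unfiltered HDM, 2 of filtered HDM, 1 of HDM media and 1 of regular media. Each group of 2 holds 1 library labelled HF6 and 1 labelled HF7. The labels spell out neither HDM nor HF, do not say how the plates differ or whether HF6 and HF7 are separate cultures, and name no treatment, so the p-values reflect only how far the HF6 and HF7 libraries differ, which may be technical. HDM media without cells was not analysed here, and no background of the medium alone was therefore measured.

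The sequences of the 6 members are shown because the seed decides which messenger RNAs a strand can pair with, and because 2 of the members are nearly the same as a chromosome 9 product. They are from RefSeq (GRCh38.p14), run 5′ to 3′, and have the seed in capitals. All 6 matched.
miR-23a-3p: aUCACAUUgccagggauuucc
miR-27a-3p: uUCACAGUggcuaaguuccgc
miR-24-3p: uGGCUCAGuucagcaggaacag
miR-23a-5p: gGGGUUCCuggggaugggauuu
miR-27a-5p: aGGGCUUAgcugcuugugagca
miR-24-2-5p: uGCCUACUgagcugaaacacag
The chromosome 9 products that come closest are printed in the same way.
miR-23b-3p: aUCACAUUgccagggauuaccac
miR-27b-3p: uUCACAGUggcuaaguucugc
miR-24-1-5p: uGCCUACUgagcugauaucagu

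miR-23a-3p and miR-23b-3p share their first 18 bases and their seed, and over 21 aligned positions, counted from the 5′ end, they differ only by U19A. miR-27a-3p and miR-27b-3p also share their first 18 bases and differ only by C19U. The deposited values of these 4 entries hold fractions, and the rule by which reads were divided between them is not given in the sources used here, so the split between a and b is uncertain and was checked by summing them. miR-24-2-5p shares its seed and first 15 bases with miR-24-1-5p and differs from it at 6 positions. Some values of these entries, and of miR-23c, are fractional too, so the split between miR-24-2-5p and miR-24-1-5p has the same uncertainty, and no sum was run for it. miR-27a-5p differs from miR-27b-5p at 8 positions, of which G3A is the 1 within the seed. No other entry in the table of counts has the seed of miR-27a-5p. miR-24-3p is made by both clusters with an identical sequence, and the table gives it 2 locations, so its counts cannot be assigned to either.

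In GRCh38 the cluster lies on the minus strand at chr19:13836287-13836659, with MIR23A first, 69 bases to MIR27A and 80 bases to MIR24-2. In the GENCODE v29 annotation all 3 hairpins lie in an exon of the non-coding antisense gene AC020916.1 (chr19:13823880-13842928), and in RefSeq they lie in the long non-coding host gene MIR23AHG (chr19:13834516-13842918). The mature miR-23a-3p is at chr19:13836595-13836615, miR-27a-3p at chr19:13836447-13836467 and miR-24-3p at chr19:13836289-13836310. The second location of miR-24-3p is chr9:95086064-95086085 on the plus strand. The hairpin of miR-27a, whose arms changed in balance between libraries, is given with both mature arms in capitals.
MIR27A: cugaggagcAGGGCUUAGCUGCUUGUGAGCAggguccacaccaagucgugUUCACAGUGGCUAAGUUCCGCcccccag

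Library totals ran from 205738 to 4896917 counts, and 2 libraries, the HF7 cell pellet and the HF7 unfiltered HDM, held fewer than 500000. Levels are given as TMM-normalised CPM (counts divided by the library's total and put on a shared scale), in which TMM scaling centres most miRNAs between libraries. A count of 3, used as the limit that a count of 0 allows, corresponded to between 0.523 and 11.1 CPM on that scale. All 8 epithelial marker miRNAs, such as the miR-200 family, were detected in every library, with summed levels of 300459 to 434226 CPM in the pellets, 281306 to 326716 in plate cells and 181961 to 232049 in HDM. The 5 leukocyte markers summed to 1445 to 4146 CPM, lowest in filtered HDM, and the erythroid miR-451a had 0 to 32 counts per library. Of the leukocyte markers, miR-155-5p and miR-150-5p went the other way. They had 81 and 4 counts in the HF6 pellet and 581 and 187 in HF6 filtered HDM. The muscle markers summed to 33.4 to 105 CPM in the pellets and to less in every other group. The endothelial and stromal markers in the table summed to 9.76 to 140 CPM and were highest in the pellets. The part of these differences in the results was not tested.

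The 3p arms were the abundant products. Together the members made up from 1.64% of a library (HF7 plate 3 cells) to 3.93% (HF7 plate 1 cells), and miR-24-3p ranked between 16 and 35 among all entries, miR-23a-3p between 22 and 40, and miR-27a-3p between 22 and 59. A library-wide share is relative to all other miRNAs, so a change in a member cannot be told apart from a change in the other miRNAs.

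miR-23a-3p stood at 10387 CPM in the HF6 pellet and 6814 in the HF7 pellet, at 11813 and 12292 in plate 1 cells, at 4713 and 4509 in plate 2 cells, and at 5047 and 4937 in plate 3 cells, with HF6 first in each pair. It stood at 7946 and 6605 CPM in unfiltered HDM, at 7767 and 7169 in filtered HDM, at 7188 in HDM media and at 7111 in regular media. Plate 1 cells were thus the highest group and plates 2 and 3 the lowest, and the pellets, both HDM groups and both media lay between them with overlapping values.

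miR-27a-3p stood at 8135 and 12710 CPM in the pellets, at 8948 and 11760 in plate 1 cells, at 2873 and 2427 in plate 2 cells, and at 2995 and 2867 in plate 3 cells. It was at 2734 and 2371 CPM in unfiltered HDM, at 2180 and 2171 in filtered HDM, at 2899 in HDM media and at 2895 in regular media. The values fall into a high set, made of the pellets and plate 1, and a low set that holds every other library. Within the low set, plates 2 and 3 overlap each other, and plate 2 overlaps unfiltered HDM.

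miR-24-3p stood at 17080 and 11306 CPM in the pellets, at 15865 and 18638 in plate 1 cells, at 10922 and 9676 in plate 2 cells, and at 10973 and 7743 in plate 3 cells. It was at 8642 and 5248 CPM in unfiltered HDM, at 6080 and 7041 in filtered HDM, at 10105 in HDM media and at 10153 in regular media. The order of the groups runs from plate 1 down to filtered HDM, and of neighbouring groups, plate 1 overlaps the pellets, plate 2 overlaps plate 3, plate 3 overlaps unfiltered HDM, and the 2 HDM groups overlap.

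The 5p arms and miR-24-2-5p were far scarcer. miR-24-2-5p, the 5p strand of the last hairpin, ran from 75.9 CPM (HF6 filtered HDM) to 199.9 CPM (HF6 plate 1 cells). miR-27a-5p was at 28.4 and 42.0 CPM in the pellets, at 101.2 and 134.1 in plate 1 cells, and between 73.0 and 102.7 in the other replicated libraries. miR-23a-5p was the scarcest, with 0 to 75 counts per library. It had 37 counts in the HF6 pellet and 0 in the HF7 pellet, where a count of 0 allows up to 10.502 CPM.

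**Figure D1:**
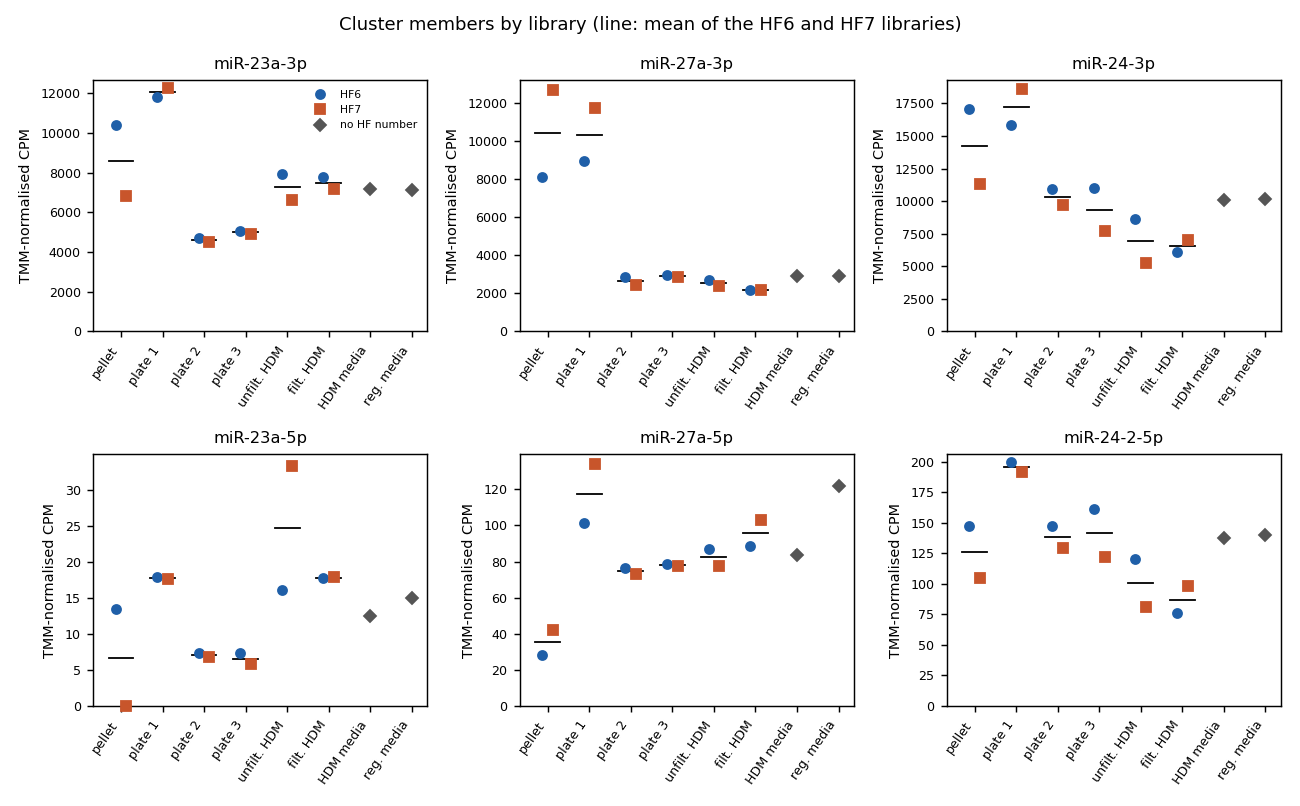
TMM-normalised CPM (y axis) of each of the 6 cluster members in the 14 libraries (x axis, by group), with HF6, HF7 and unnumbered media libraries as separate symbols and the mean of each pair as a line. miR-27a-3p lies at or above 8135 CPM in the pellets and plate 1 cells and at or below 2995 CPM elsewhere, while miR-23a-3p in HDM lies between plate 1 and plates 2 and 3.

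Unfiltered and filtered HDM were each compared with the cell pellets. In both comparisons miR-27a-3p fell and its opposite strand, miR-27a-5p, rose. miR-27a-3p averaged 10423 ± 3235 CPM in the pellets and 2552 ± 257 in unfiltered HDM (SD, n = 2 each), 4.08-fold lower in the fit (log2 fold change -2.03 ± 0.25 SE, edgeR quasi-likelihood test, Benjamini-Hochberg adjusted p = 3.16e-05). In filtered HDM it averaged 2176 ± 6.33 CPM, 4.79-fold lower (log2 fold change -2.26 ± 0.25, adjusted p = 6.92e-06). Both HDM libraries of each kind lay below both pellets. miR-27a-5p averaged 35.2 ± 9.66 CPM in the pellets, and was 2.63-fold higher in unfiltered HDM (adjusted p = 0.00375) and 2.998-fold higher in filtered HDM (adjusted p = 0.000711).

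miR-24-3p also fell, from 14193 ± 4083 CPM in the pellets to 6945 ± 2400 in unfiltered HDM, 2.04-fold lower (log2 fold change -1.03 ± 0.27, adjusted p = 0.00938), and to 6560 ± 679 in filtered HDM, 2.16-fold lower (log2 fold change -1.11 ± 0.27, adjusted p = 0.00472). miR-23a-3p did not pass, with log2 fold changes of -0.24 ± 0.22 and -0.20 ± 0.22 (adjusted p = 0.452 and 0.485), nor did miR-24-2-5p (-0.31 ± 0.30 and -0.59 ± 0.29) or miR-23a-5p (0.86 ± 0.54 and 0.69 ± 0.49). So 1 of the 6 members rose and 2 fell in each comparison, and the 2 comparisons share the same pellets. Pellets and HDM had no overlap between libraries for 4 members in unfiltered HDM (50.9% of all miRNAs) and for 5 in filtered HDM (61.2%). Across all 534 miRNAs tested, 30.9% were called in unfiltered HDM (14.4% higher, 16.5% lower) and 39.1% in filtered HDM (18.2% higher, 21.0% lower), so calls were common among miRNAs in general. The median log2 fold change was -0.27 over the members and 0.06 over all miRNAs for unfiltered HDM, and -0.40 and 0.09 for filtered HDM.

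Several of these calls rest on a setting or on 1 library. With library totals as the only scaling, the median over all miRNAs moved to 0.64 and 0.56, miR-24-3p was at -0.46 in unfiltered HDM (adjusted p = 0.0851), and miR-23a-3p turned positive (0.35 and 0.24), and miR-23a-5p was called in unfiltered HDM (1.496, adjusted p = 0.0423), while the differences of both miR-27a strands kept their direction and passed. miR-23a-5p was also called in both comparisons without the HF6 pellet (adjusted p = 0.0152 and 0.0139), which leaves a single pellet with 0 counts and so no usable fold. The miR-24-3p call was lost without the HF7 unfiltered HDM library (-0.63, adjusted p = 0.120) and, in filtered HDM, without the HF6 filtered library (-0.89, adjusted p = 0.0802). Fitted on the compared libraries alone, miR-27a-5p missed the threshold in both (adjusted p = 0.134 and 0.0524), and in unfiltered HDM it also did so without the HF6 pellet (adjusted p = 0.0822) or the HF6 unfiltered library (adjusted p = 0.0575). With miR-27a-3p and miR-27b-3p summed, the fall was -0.57 and -0.55 and did not pass (adjusted p = 0.0819 and 0.0795). With the plates grouped as HF6 and HF7 instead of by number, no member was called in unfiltered HDM (adjusted p = 0.0724, 0.0717 and 0.104 for miR-27a-3p, miR-27a-5p and miR-24-3p), and miR-24-3p was not called in filtered HDM (0.0690).

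Filtered and unfiltered HDM were not told apart by any member. The log2 fold changes of the 6 members lay between -0.29 ± 0.29 (miR-24-2-5p) and 0.19 ± 0.27 (miR-27a-5p), with adjusted p of 0.964 to 0.982 in edgeR. Among all miRNAs 0.562% were called, 37 had an unadjusted p under 0.05, and DESeq2 called 6 miRNAs, no member among them. For 2 members, miR-27a-3p and miR-27a-5p, there was no overlap between the groups (39.1% of all miRNAs), yet the differences of -0.23 ± 0.24 and 0.19 ± 0.27 were no larger than their errors.

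Among the cells, the members separated by plate. The grouping of plates, here and below, was chosen with earlier results of these data known. Its p-values are therefore not an independent test of a plate difference. The fit also treats the libraries as independent, although HF6 and HF7 recur in every plate group. Between plates 2 and 3 on one side and plate 1 on the other, 5 of the 6 members fell, and for all 6 the 4 libraries of plates 2 and 3 lay below both libraries of plate 1. Of all miRNAs, 26.0% were called (14.6% lower) and 49.8% had groups that did not overlap. The median log2 fold change was -1.07 over the members and 0.02 over all miRNAs (0.21 with library totals as the only scaling).

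miR-27a-3p changed the most, from 10354 ± 1988 CPM in plate 1 (SD, n = 2) to 2790 ± 249 in plates 2 and 3 (SD, n = 4), 3.72-fold lower (log2 fold change -1.89 ± 0.20, adjusted p = 8.28e-06). miR-23a-3p went from 12052 ± 339 to 4802 ± 240 CPM, 2.51-fold lower (-1.33 ± 0.18, adjusted p = 9.1e-05). Both calls held under each of the 15 alternatives run for this comparison, with the highest adjusted p at 0.0107 and 0.00321, respectively. With the a and b entries summed, the differences were smaller, at -0.76 and -0.73. miR-24-3p, the product that both clusters share, was 1.76-fold lower (-0.81 ± 0.23, adjusted p = 0.0155), and miR-23a-5p fell from 17.9 and 17.7 CPM to between 5.78 and 7.34 (-1.40 ± 0.38, adjusted p = 0.0121). miR-27a-5p was 1.53-fold lower (-0.62 ± 0.21, adjusted p = 0.0405), and miR-24-2-5p did not pass (-0.49 ± 0.23, adjusted p = 0.133).

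The smaller differences depend on single libraries, since plate 1 has only 2. The count of members called was 2 without either plate 1 library or without the HF7 plate 3 library, and 3 without the HF7 plate 2 library. In those fits miR-24-3p missed the threshold (adjusted p of 0.0638 to 0.161), as did miR-23a-5p in all but the last (0.0768 to 0.0927). The call of miR-27a-5p was lost in 11 of the 15 alternatives. Fitted on the plate libraries alone, all 6 members were called, with miR-24-2-5p at an adjusted p of 0.0345. The number called over all miRNAs also moved, reaching 211 among the 15 alternatives against 139 in the main fit.

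Plate 1 cells and pellets differed in 1 member. miR-27a-5p was 3.69-fold higher in plate 1 (117.6 ± 23.3 against 35.2 ± 9.66 CPM, SD, n = 2 each, log2 fold change 1.88 ± 0.30, adjusted p = 0.00268), where 5.62% of all miRNAs were called (3.75% higher, 1.87% lower). The libraries did not overlap for 4 members (45.1% of all miRNAs). Its opposite strand miR-27a-3p was at -0.01 ± 0.24 (adjusted p = 0.987), and miR-23a-3p and miR-24-3p were at 0.49 ± 0.22 and 0.28 ± 0.27 (adjusted p = 0.201 and 0.584). Fitted on these 4 libraries alone, no member and no other miRNA was called. With library totals as the only scaling, 3 members were called (miR-23a-3p, miR-27a-5p and miR-24-2-5p). Across the alternatives the number called over all miRNAs ran from 0 to 107, against 30 in the main fit. The 5.62% of the main fit is therefore not the background of those 3 calls. With 1 library left out, the log2 fold change ran from 1.498 to 2.106 for miR-27a-5p and from 0.241 to 0.841 for miR-23a-3p. Without the HF6 pellet, the pellet left had 0 counts of miR-23a-5p, which gives no usable fold.

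HDM was then set against the cells of plates 2 and 3, where miR-27a-3p was in the same low set of values. Each side holds the HF6 and HF7 libraries of 2 groups. The fit treats its 4 libraries as independent, which the labels do not settle. Both strands of miR-23a rose. miR-23a-3p averaged 7372 ± 610 CPM in the 4 HDM libraries and 4802 ± 240 in the 4 plate libraries, 1.54-fold higher (log2 fold change 0.62 ± 0.16, adjusted p = 0.00841), and every HDM library lay above every plate library. miR-23a-5p was 2.80-fold higher (1.49 ± 0.35, adjusted p = 0.00472), at 16.1 to 33.3 CPM in HDM against 5.78 to 7.34. The 33.3 CPM is 9 counts in HF7 unfiltered HDM (95% interval of counting error 15.2 to 63.2 CPM), and HF6 plate 3 cells also had 9 counts. The strands of miR-23a were the 2 of 6 members called, with 23.6% of all miRNAs called (11.8% in each direction). For 3 members the groups did not overlap (29.2% of all miRNAs). The miR-23a-3p call was lost without a low-count filter (0.50, adjusted p = 0.0685). miR-27a-3p was at -0.24 ± 0.17 (adjusted p = 0.327), miR-27a-5p at 0.23 ± 0.18 (0.392), miR-24-3p at -0.54 ± 0.19 (0.0533) and miR-24-2-5p at -0.54 ± 0.20 (0.0599). The last pair lies close to the threshold, and 4 members were called with DESeq2, RLE factors, the HF number as a block, the 8 libraries alone or the a and b entries summed. Of the 17 alternatives run for this comparison, miR-24-3p passed in 10 and miR-24-2-5p in 6.

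**Figure D2:**
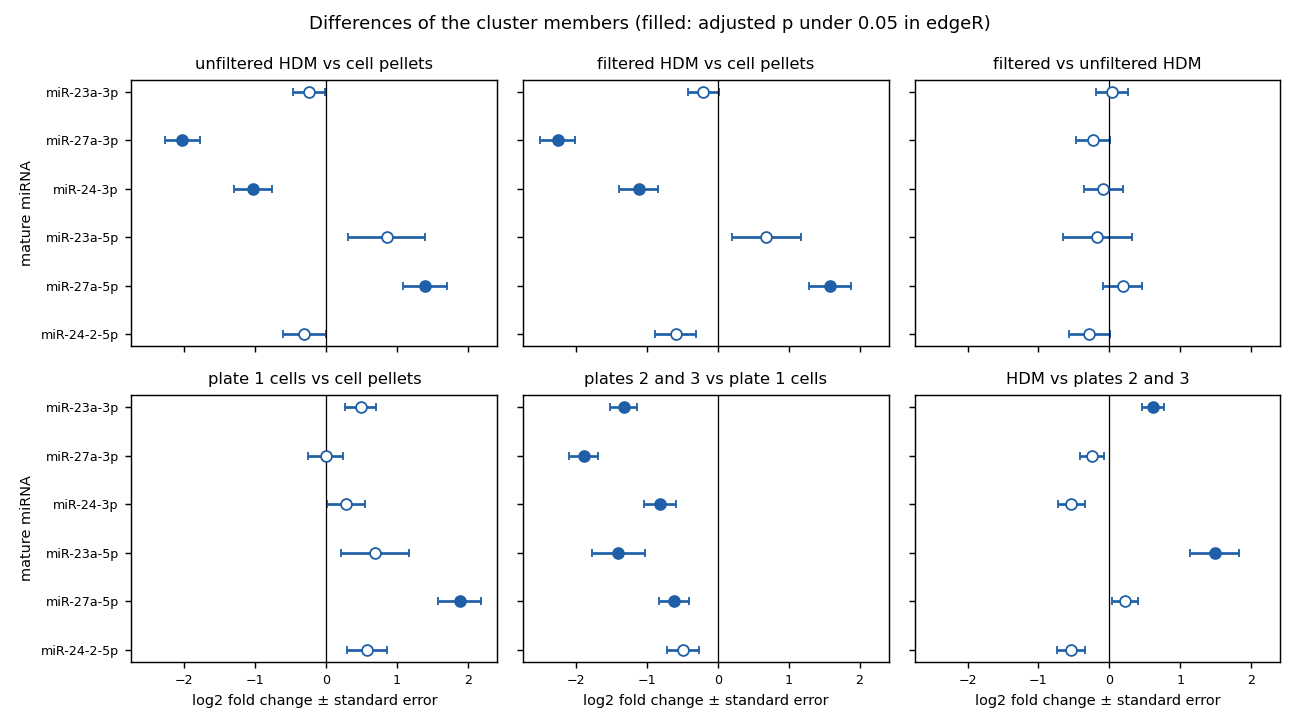
Log2 fold change with its standard error (x axis) of each member (y axis) in the 6 comparisons, from the edgeR fit, with filled points at an adjusted p under 0.05. miR-27a-3p is at -2.03 and -2.26 in HDM against pellets and at -1.89 in plates 2 and 3 against plate 1, and the 2 strands of miR-27a point in opposite directions in the first pair of panels.

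Ratios between the 3p arms within a library need no scaling between libraries. They were added after the values had been seen, so their tests are descriptions of a pattern already known. The permutation shuffles single libraries as if they were independent, but HF6 and HF7 recur in every group. The cell groups also differ from each other, so the permutation p-values may be too small. The ratio of miR-23a-3p to miR-27a-3p was 1.28 and 0.536 in the pellets, 1.32 and 1.05 in plate 1, 1.64 and 1.86 in plate 2, and 1.69 and 1.72 in plate 3. It was 2.91 and 2.79 in unfiltered HDM, 3.56 and 3.30 in filtered HDM, 2.48 in HDM media and 2.46 in regular media. All HDM and media libraries lay above all cell libraries. On the log2 scale the 4 HDM libraries exceeded the 4 libraries of plates 2 and 3 by 0.86, a factor of 1.81 (two-sided exact permutation test, p = 0.0286, the smallest this design allows, 0.0429 adjusted over 6 ratio tests). Against all 8 cell libraries the difference was 1.26, a factor of 2.40 (exact permutation p = 0.00202, also the smallest possible, adjusted 0.00606).

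The ratio of miR-23a-3p to miR-24-3p was 0.431 to 0.745 in cells, 0.919 to 1.28 in HDM, and 0.711 and 0.700 in the media libraries. HDM exceeded plates 2 and 3 by 1.17 on the log2 scale, a factor of 2.25 (exact permutation p = 0.0286, adjusted 0.0429). The ratio of miR-27a-3p to miR-24-3p did not separate them (log2 difference 0.31, exact permutation p = 0.143, adjusted 0.171). Among cells this last ratio was highest in the HF7 pellet, at 1.12, against 0.476 in the HF6 pellet. With the a and b entries summed, the log2 difference of the miR-23 to miR-27 ratio from plates 2 and 3 shrank to 0.47 (exact permutation p = 0.0286) and that from all 8 cell libraries to 0.56, a factor of 1.47 (exact permutation p = 0.0101). The difference of the miR-27 to miR-24-3p ratio from plates 2 and 3 grew to 0.73 (exact permutation p = 0.0286).

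The balance between the 2 strands of a hairpin was measured as the 5p share of the counts of both arms, with exact (Clopper-Pearson) 95% intervals that cover counting error only. For miR-27a the 5p share was 0.347% (0.275 to 0.433) in the HF6 pellet and 0.329% (0.170 to 0.575) in the HF7 pellet. It was 1.12% and 1.13% in plate 1, 2.60% and 2.92% in plate 2, and 2.56% and 2.64% in plate 3. In unfiltered HDM it was 3.09% and 3.17%, in filtered HDM 3.90% and 4.52%, in HDM media 2.81% and in regular media 4.04%. The pellets thus had the lowest share, plate 1 an intermediate one, and plates 2 and 3, HDM and media the highest.

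In a limma fit of the log2 ratio of 5p to 3p counts over 134 hairpins, the ratio of miR-27a was higher in HDM than in pellets by 3.45 ± 0.22 (SE, adjusted p = 1.05e-05), and that of miR-23a by 2.28 ± 0.60 (adjusted p = 0.0157). That of miR-24-2, whose 3p arm is shared with miR-24-1, was at 0.63 ± 0.23 (adjusted p = 0.0510). The shift was not particular to this cluster. In the same fit the chromosome 9 hairpins also rose, miR-23b by 4.16 ± 0.49 (adjusted p = 0.000222, with almost no 5p reads in the pellets). miR-27b rose by 1.39 ± 0.25 (adjusted p = 0.00238) and miR-24-1 by 0.97 ± 0.28 (adjusted p = 0.0236). Of all hairpins, 42.5% were called in this comparison (21.6% toward 5p), with a median difference of -0.01. The miR-23a difference rests on few 5p reads, and without the HF7 pellet, which has none, it was 1.11 (adjusted p = 0.0823). Between plates 2 and 3 and plate 1, the miR-27a ratio rose by 1.28 ± 0.22 (adjusted p = 0.0246, with 7.46% of hairpins called, 5.22% toward 5p and 2.24% toward 3p), and the call was lost when any of 5 of the 6 plate libraries was left out (adjusted p of 0.0676 to 0.224). In that plate comparison the miR-23b ratio was also called higher (2.70 ± 0.49, adjusted p = 0.0246), while miR-27b (0.37 ± 0.25) and miR-24-1 (0.87 ± 0.28) were not called. Between HDM and plates 2 and 3, none of the 3 cluster hairpins was called (miR-27a at 0.46 ± 0.18, adjusted p = 0.133). Of all hairpins, 9.70% were called there, 4.48% toward 5p and 5.22% toward 3p.

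Besides the members, 6 related entries were tested, namely 5 specific to the chromosome 9 cluster (miR-23b-3p, miR-23b-5p, miR-27b-3p, miR-27b-5p and miR-24-1-5p) and miR-23c, which RefSeq places on chromosome X. miR-24-3p, which chromosome 9 also makes, is counted with the members. In HDM against pellets 3 of the 6 rose in each comparison (14.4% of all miRNAs were called higher in unfiltered and 18.2% in filtered HDM). No related entry was called lower there (16.5% and 21.0% of all miRNAs) or in the other 4 comparisons. miR-23b-3p, which differs from miR-23a-3p at a single aligned base, rose by 0.61 ± 0.22 in unfiltered HDM (adjusted p = 0.0471) and by 0.76 ± 0.22 in filtered HDM (adjusted p = 0.0133), and miR-27b-5p rose by 1.73 ± 0.28 and 1.59 ± 0.28. miR-23b-5p had 2 and 0 counts in the pellets, too few for a fold, and 27.0 to 51.8 CPM in HDM. Between plates 2 and 3 and plate 1, miR-23b-3p and miR-27b-3p were at 0.07 ± 0.19 and -0.09 ± 0.19 (adjusted p = 0.808 and 0.746), beside -1.33 and -1.89 for the a forms, and miR-23b-5p rose by 2.71 ± 0.39 (adjusted p = 0.000108). Against plates 2 and 3, HDM was higher in miR-23b-3p by 0.69 ± 0.16 (adjusted p = 0.00425), beside 0.62 for miR-23a-3p. In plate 1 against pellets the only call was miR-27b-5p (0.98 ± 0.27, adjusted p = 0.0480). miR-24-1-5p and the sparse miR-23c passed in none of the 6.

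The split between the a and b forms also differed between libraries. miR-27a-3p made up 51.2% and 51.8% of miR-27a-3p plus miR-27b-3p in the pellets and 49.6% and 52.7% in plate 1. Its share was 22.7% to 23.7% in plates 2 and 3, 19.9% and 18.99% in unfiltered HDM, 15.6% and 15.3% in filtered HDM, 21.8% in HDM media and 18.6% in regular media. The a form was thus close to equal with the b form in the first 4 cell libraries and the minor form in all others. miR-23a-3p made up 60.0% and 59.0% of the miR-23-3p counts in the pellets, 67.5% and 69.5% in plate 1, and 43.3% to 46.9% in plates 2 and 3. In HDM its share was 42.7% to 45.0%, and in both media libraries it was 41.5%. miR-24-2-5p, whose sequence differs from miR-24-1-5p over its last bases, stayed at 69.3% to 83.3% of the 2 entries in every library.

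**Figure D3:**
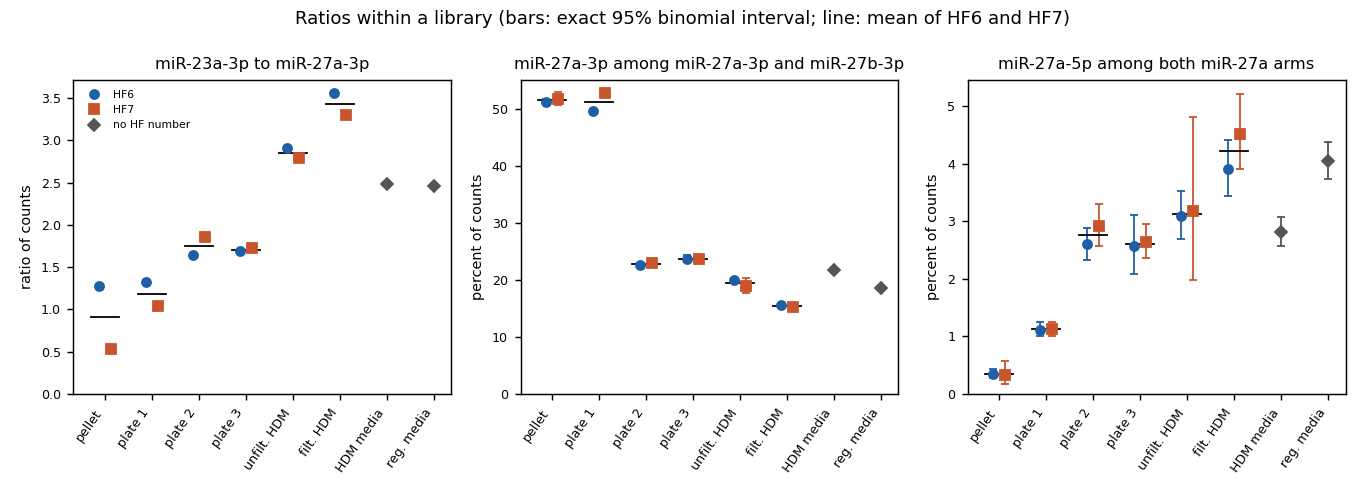
Ratio of miR-23a-3p to miR-27a-3p counts (left), miR-27a-3p as a percent of miR-27a-3p plus miR-27b-3p (middle) and miR-27a-5p as a percent of both miR-27a arms (right) in each library, with group means as lines and exact 95% binomial intervals as bars on the percents. The ratio rises from at most 1.86 in cells to at least 2.79 in HDM, and the middle panel drops from 49.6% or more in pellets and plate 1 to 23.7% or less in the rest.

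The members did not follow one another evenly. Over the 12 libraries the Pearson correlation of log2 CPM was 0.813 between miR-27a-3p and miR-24-3p, 0.882 between miR-24-3p and miR-24-2-5p, and 0.646 between miR-23a-3p and miR-27a-3p, but -0.278 between the 2 strands of miR-27a. These values and those that follow are descriptions, since the points share libraries and groups. Among 215 other miRNAs that averaged 50 CPM or more, miR-23a-3p was most like miR-181a-5p (0.927), miR-135b-5p (0.925) and miR-320c (0.876). miR-27a-3p was most like miR-183-5p (0.944), miR-29c-3p (0.922) and miR-338-3p (0.919), and miR-24-3p was most like miR-99a-5p (0.946), miR-203a-3p (0.916) and miR-96-5p (0.913). For the scarce strands the nearest were miR-222-3p for miR-23a-5p (0.923), miR-25-5p for miR-27a-5p (0.810) and miR-22-3p for miR-24-2-5p (0.921). In this search for the nearest miRNAs, 0.5 CPM was added before the log2. miR-23a-5p had 0 counts in the HF7 pellet, so its value there was set by the added 0.5 CPM. A count of 0 allows up to 10.502 CPM in that library, above the 5.78 to 7.34 CPM of miR-23a-5p in plates 2 and 3. The match of miR-23a-5p was not tested without that library.

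The HDM media and regular media libraries have no replicate and were not tested. Their 3p arms stood at 7188 and 7111 CPM for miR-23a-3p, 2899 and 2895 for miR-27a-3p, and 10105 and 10153 for miR-24-3p. Their miR-27a-3p lay in the range of plates 2 and 3, and their miR-24-3p lay above all 4 HDM libraries. miR-27a-5p was at 83.8 CPM in HDM media and 121.8 in regular media.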

How the data were processed

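The authors deposited 1 table of expected counts of reads per mature miRNA (1619 entries, 14 columns), not normalized, with some fractional values. Per the labels' protocols, RNA was extracted with the miRNeasy kit and libraries were made with the NEXTflex small RNA kit. Per the submitters' processing notes, cutadapt 2.10, Bowtie 1.3.1, FastQC and GRCh38 were used, with roles not given in the sources used here. The table holds no counts of molecular identifiers, so intervals and floors cover counting error only.

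Values were rounded to whole counts. The 12 libraries of 6 groups (HF6 and HF7 taken as replicates) were fitted together in edgeR 4.0.16 with TMM factors, filterByExpr (534 miRNAs left, with 99.96% of counts) and the quasi-likelihood test (6 residual degrees of freedom). Calls are at a Benjamini-Hochberg adjusted p under 0.05 over all miRNAs tested. All 6 members and all 6 related entries (5 of chromosome 9 and miR-23c of chromosome X) passed the filter. Plates were grouped by number because earlier results showed that plates differ. Arm ratios used limma 3.58.1 on hairpins with at least 100 counts per arm and a pseudocount of 0.5, and DESeq2 1.42.0 was an alternative. Fits were also run on simulated counts, drawn as independent libraries with no HF difference. That run checks the code and does not bear on the calls here.

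The members, lists and comparisons were chosen with earlier results of these data known, and the ratios between 3p arms after their values were seen. The miRNAs named are the members, the chromosome 9 products with miR-23c, and for each member the miRNAs with the highest correlation (up to 3, at a mean of at least 50 CPM). Within each group, the HF6 and HF7 libraries were not copies of each other, and pairs across groups were not checked for this.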

Additional observations from a re-analysis of the deposited data

How the results depend on the processing

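The alternatives were DESeq2, RLE size factors, scaling by library totals alone, omission of the low-count filter, a filter of 50 counts in 2 libraries, the HF number as a block, a fit on the compared libraries alone, plates grouped as HF6 and HF7, and each library left out. Removal of the 2 libraries under 500000 counts and the sums of a and b entries were chosen after seeing the data. The number of members called in HDM against plates 2 and 3 was 2, and 4 with DESeq2, RLE, the compared libraries alone or the sums. In plate 1 against pellets it was 1, and 3 with library totals, 2 with the filter of 50 and 0 with the compared libraries alone. In plates 2 and 3 against plate 1 it was 5, and 3 with the filter of 50 and 6 with the compared libraries alone. In unfiltered HDM against pellets it was 3, and 0 with plates grouped as HF6 and HF7 (adjusted p = 0.0724 for miR-27a-3p). With 1 library left out, the members called numbered 2 to 3 (unfiltered HDM and pellets), 2 to 4 (filtered HDM and pellets), 0 (filtered and unfiltered HDM), 1 to 3 (plate 1 and pellets), 2 to 4 (plates 2 and 3 and plate 1) and 2 to 3 (HDM and plates 2 and 3). The hairpins called by arm ratio then numbered 1 to 2 in HDM against pellets and 0 to 1 in plates 2 and 3 against plate 1. The counts over all miRNAs moved as well. Across the alternatives they ran from 95 to 264 in filtered HDM against pellets (209 in the main fit). In plate 1 against pellets they ran from 0 to 107 (30 in the main fit). They fell as low as 54 in unfiltered HDM against pellets (165 in the main fit). They reached 211 in plates 2 and 3 against plate 1 (139) and 199 in HDM against plates 2 and 3 (126). The cause of these changes was not tested.

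Some differences near 0 changed sign. For miR-23a-3p in filtered against unfiltered HDM (0.04) the values were -0.00385 (DESeq2), -0.00363 (RLE), -0.11 (library totals), -0.10 (filter of 50) and -0.0377 (compared libraries). With library totals miR-23a-3p was at 0.35 and 0.24 and miR-24-2-5p at 0.27 against pellets, and miR-27a-3p in plate 1 was at 0.10. miR-27a-3p in plate 1 was also at 0.0731 without a filter and 0.39 without the 2 shallow libraries, where miR-23a-5p in filtered HDM was at 0.24. With a and b summed, miR-23a-3p was at 0.28 and 0.30 against pellets, and miR-27a-3p at 0.0180 (filtered against unfiltered), 0.0143 (plate 1) and 0.19 (HDM against plates 2 and 3). The log2 ratio of miR-27a-3p to miR-24-3p was 0.73 against plates 2 and 3, and 0.70 against all cells in place of -0.29. A pseudocount of 2 put the miR-23a arm ratio of plates 2 and 3 at 0.0364. With 1 library left out, differences that changed sign ran from -0.39 to 0.13 (miR-23a-3p) and -0.55 to 0.0789 (miR-24-2-5p) in unfiltered HDM against pellets, and from -0.29 to 0.21 (miR-23a-3p) in filtered HDM. Between the HDM kinds they ran from -0.0899 to 0.21 (miR-23a-3p), -0.87 to 0.14 (miR-23a-5p), -0.39 to 0.36 (miR-24-3p) and -0.47 to 0.13 (miR-24-2-5p), and for miR-27a-3p in plate 1 from -0.28 to 0.37. Arm ratios ran from -0.0781 to 0.0145 (miR-24-2, HDM against plates 2 and 3) and -0.12 to 0.0536 (miR-23a, plates 2 and 3 against plate 1).

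The HF numbers gave correlations of deviations between groups of -0.240 to 0.398 (7 of 15 pairs over 0.1), which does not settle whether they pair the libraries. The main fits used the group only. With the HF number as a replicate block, 4 members were called in HDM against plates 2 and 3. The low 5p counts (0 to 75 for miR-23a-5p) and the 2 shallow libraries limit the precision.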
